A study of Mus musculus with 18 samples.

Results

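The receptors that bind the constant (Fc) part of immunoglobulin G, together with the chain they signal through, were followed in tumour RNA from mice. The 6 genes were taken by symbol from the 37620 gene IDs of the count files, and all 6 were found: Fcgr1 (ENSMUSG00000015947), Fcgr3 (ENSMUSG00000059498), Fcgr4 (ENSMUSG00000059089), Fcgr2b (ENSMUSG00000026656), Fcer1g (ENSMUSG00000058715) and Fcgrt (ENSMUSG00000003420). Fcgr2b, Fcgr3, Fcgr4 and Fcer1g lie on chromosome 1, Fcgr1 on chromosome 3 and Fcgrt on chromosome 7. All 6 passed the filter on low counts. The tumours grew from MO4 cells, a B16F10 melanoma line of C57BL/6 origin that expresses ovalbumin, of which 100000 were put under the skin of each hindlimb of C57BL/6 mice on day 0. Treated mice received 1000000 iPSC-pMCs (written pMC below) or IFN-α-iPSC-pMCs (IFN-alpha-pMC) beside the right tumour on days 5, 6 and 7, control mice received no cells, and RNA was taken on day 11. The right control tumours carry a tissue label that calls them treated, while their treatment label gives none, and they were used as controls. The right side was thus the injected one and the left side the distant one, with 3 libraries in each of 6 groups. The labels give no age or sex of the mice, do not say that the libraries of a group came from separate animals or whether a right and a left library share a mouse, and do not spell out pMC or the line the cells came from. The p-values therefore measure the spread between these samples, which may be technical, and RNA of injected cells and of host cells in right tumours cannot be told apart.

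Fc gamma receptors let myeloid cells and natural killer (NK) cells respond to antibody bound to a target. Fcgr1, Fcgr3 and Fcgr4 encode activating receptors, which signal through the ITAM motif of the Fc receptor gamma chain, the product of Fcer1g, and through kinases such as Syk. Fcgr2b encodes the inhibitory receptor, whose ITIM motif recruits the phosphatase encoded by Inpp5d, and Fcgrt encodes the neonatal Fc receptor, which pairs with beta-2-microglobulin and keeps IgG from being broken down. In tumours these receptors are known from macrophages and monocytes above all, and macrophages need them to take up cells coated with antibody.

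The stretches just upstream of 3 of these genes are shown because Fcgr1 and Fcgr4 moved together in the results below and Fcgr2b moved less. They are RefSeq sequences of build GRCm38.p6, 250 bases before the gene start, 5′ to 3′ on the gene's own strand. The search covered both strands for the gamma-activated site TTCNNNGAA, the interferon-stimulated response element core (TTTCNN followed by TTTC) and the core GAGGAA of sites for the myeloid factor PU.1, and capitals mark the matches.
Fcgr1, chr3:96293970-96294219, minus strand: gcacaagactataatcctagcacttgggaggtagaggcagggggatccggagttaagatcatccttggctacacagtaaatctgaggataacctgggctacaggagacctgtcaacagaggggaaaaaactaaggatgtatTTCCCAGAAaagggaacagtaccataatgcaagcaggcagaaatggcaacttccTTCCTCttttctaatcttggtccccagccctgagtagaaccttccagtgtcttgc
Fcgr4, chr1:171018676-171018925, plus strand: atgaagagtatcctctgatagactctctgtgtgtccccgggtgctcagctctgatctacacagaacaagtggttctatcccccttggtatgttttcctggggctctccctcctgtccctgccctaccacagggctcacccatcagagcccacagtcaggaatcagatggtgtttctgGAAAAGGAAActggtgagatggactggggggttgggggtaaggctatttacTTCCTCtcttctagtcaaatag
Fcgr2b, chr1:170976072-170976321, minus strand: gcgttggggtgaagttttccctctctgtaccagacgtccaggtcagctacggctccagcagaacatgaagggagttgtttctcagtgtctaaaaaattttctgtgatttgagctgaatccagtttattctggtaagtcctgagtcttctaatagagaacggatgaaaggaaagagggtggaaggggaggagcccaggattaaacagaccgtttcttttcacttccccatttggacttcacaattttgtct
The Fcgr1 stretch held the gamma-activated site letters TTCCCAGAA, 109 to 101 bases before the start, and a PU.1 core on the opposite strand, 55 to 50 bases before it. The Fcgr4 stretch held the response element core as GAAAAGGAAA on the opposite strand, 73 to 64 bases before the start, and a PU.1 core 22 to 17 bases before it. These matches do not overlap each other. Both listed starts of Fcgr3 had a PU.1 core within 15 bases, and the stretches of Fcgr2b, Fcer1g and Fcgrt had none of the 3 motifs. Fcer1g, whose stretch is not shown, moved with Fcgr1 and Fcgr4 in the results below. Whether matches go with differences was not tested. Over 32851 promoters of the same length, 7.0% held the gamma-activated site letters, 3.0% the response element core and 23.3% the PU.1 core. A match is a string of letters and not evidence of binding.

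Libraries held 14346091 to 23430259 counts, and 17844 to 18970 gene IDs had counts. The members had 316 to 5772 counts per library, so none was near the floor of detection. The melanocyte lineage genes of the labelled tumour were high throughout (28700 to 43600 CPM summed over 7 genes, CPM being counts scaled to a library of 1000000 after correction by trimmed means), and the 14 monocyte and macrophage markers were present in all groups (833 to 2240 CPM). Library 3 of the right controls, library 3 of right IFN-alpha-pMC and library 1 of left IFN-alpha-pMC stood apart within their groups. Spearman coefficients of library pairs ran from 0.936 to 0.981 among right controls and from 0.99 to 0.996 among left controls. They ran from 0.962 to 0.994 among right and from 0.964 to 0.995 among left IFN-alpha-pMC libraries. Among pMC libraries they ran from 0.986 to 0.992 on the right and from 0.993 to 0.995 on the left. Every IFN-alpha-pMC library also had a lower share of read pairs outside annotated genes (4.04 to 6.12%) than any other library (6.87 to 12.21%), and skeletal muscle scores, the centred mean log2 CPM of 8 muscle genes, of 1.61 to 4.13. The scores were −4.95 to 0.3 in the other libraries apart from right control 1 (2.02). What muscle content or unannotated reads add to the results below was tested only by a fit with the muscle score as a covariate.

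Per kilobase of exon, Fcer1g had the highest level of the 6 genes in every group, and Fcgr1 stood higher in the order in IFN-alpha-pMC tumours than elsewhere. Lengths are the exons of all transcripts in GENCODE M21, which may not be the authors' annotation. In right IFN-alpha-pMC tumours the order was Fcer1g (267 ± 5.24 CPM per kb, SD, n = 3), Fcgr4 (108 ± 9.94), Fcgr3 (53.5 ± 13.3), Fcgr1 (43.2 ± 6.54), Fcgrt (15.4 ± 3.27) and Fcgr2b (11.9 ± 3.12). Fcgr3 and Fcgr1 overlapped there, as did Fcgrt and Fcgr2b. In right controls the order was Fcer1g (71.2 ± 29.4), Fcgr4 (29.3 ± 20.5), Fcgr3 (23.2 ± 17.5), Fcgrt (13.1 ± 5.19), Fcgr1 (9.41 ± 5.04) and Fcgr2b (7.56 ± 1.39), and every neighbouring pair overlapped. The tighter left controls had the same order, with Fcgr1 at 7.82 ± 0.519 and Fcgr2b at 7.31 ± 0.364 CPM per kb overlapping. Fcgr1 was thus in place 4 in both IFN-alpha-pMC groups and in place 5 in the other 4 groups. With the longest transcript as length, Fcgr2b passed Fcgr1 and Fcgr1 was in place 6 in those 4 groups and again in place 4 in the IFN-alpha-pMC groups, and Fcgr3 stood level with or above Fcgr4 in the control and pMC groups.

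**Figure D1:**
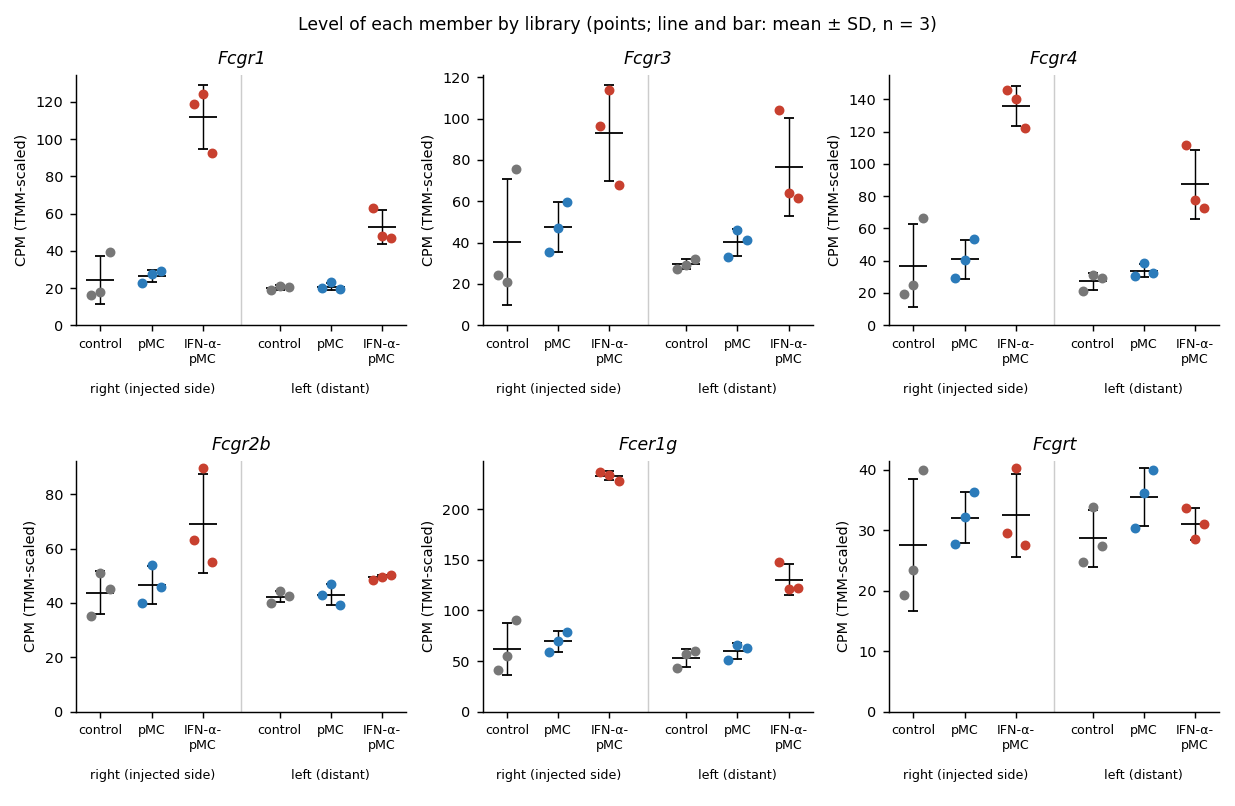
Level of each gene in each of the 18 libraries in CPM (points), with the group mean and SD (line and bar, n = 3), right tumours on the left of each panel. The 3 right IFN-alpha-pMC libraries sit at 92.5 to 124 CPM for Fcgr1 and at 228 to 237 CPM for Fcer1g, above all other libraries, while the groups of Fcgrt overlap.

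On the injected side, Fcgr1, Fcgr4 and the gamma chain Fcer1g rose in IFN-alpha-pMC tumours against both controls and pMC, by 3.33-fold to 4.6-fold. Against controls 4 of the 6 genes were called at an adjusted p under 0.05, all higher (Fcgr1, Fcgr4, Fcer1g and Fcgr2b), where 10.8% of the 14849 genes tested were called and 8.78% were called higher. Against pMC 3 of 6 were called, all higher, beside 10.1% of all genes called and 8.88% called higher. Every IFN-alpha-pMC library lay above every control for 4 of 6 genes (13.3% of all genes did so) and above every pMC library for 5 of 6 (16.2%). The share called over all genes depends on single libraries: leaving out 1 gave 1090 to 3946 genes called against controls, where the full fit gave 1601, with the highest counts without right control 3 and without right IFN-alpha-pMC 3. These comparisons share the IFN-alpha-pMC libraries, so one is no independent support for the other. In bulk tissue, more cells of a type and more RNA per cell cannot be told apart. Adjusted p-values are from edgeR's quasi-likelihood test over all genes, and differences are log2 values ± SE.

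Fcgr1 encodes the high-affinity activating receptor of monocytes and macrophages. It stood at 16, 17.7 and 39.4 CPM in right control libraries 1, 2 and 3, at 22.7, 27.5 and 29.2 CPM in right pMC and at 119, 124 and 92.5 CPM in right IFN-alpha-pMC. All IFN-alpha-pMC libraries lay above all others on that side, and right control 3 was the highest control. The difference was 2.2 ± 0.27 against controls (4.6-fold, adjusted p = 4.45e-05) and 2.08 ± 0.27 against pMC (4.23-fold, adjusted p = 6.75e-05). Both calls held in the 18 fits that each left out 1 library, with DESeq2 and after adjustment for the muscle score (2.22 against controls, adjusted p = 0.00107). That score was higher in every right IFN-alpha-pMC library than in every other right library. The adjustment therefore cannot separate muscle content from treatment.

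Fcgr4 encodes the activating receptor of intermediate affinity for IgG2a/c and IgG2b. It stood at 19.1, 24.9 and 66.4 CPM in right controls, at 29.1, 40.3 and 53.2 CPM in pMC and at 146, 140 and 122 CPM in IFN-alpha-pMC. The groups did not overlap, with right control 3 again high. Fcgr4 rose by 1.89 ± 0.36 against controls (3.71-fold, adjusted p = 0.00181) and by 1.74 ± 0.36 against pMC (3.33-fold, adjusted p = 0.00348). The first value was not called in a fit of the 2 groups alone (1.86, adjusted p = 0.0694).

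Fcer1g is the shared signalling chain. It stood at 41.2, 54.5 and 90.9 CPM in right controls, at 59.2, 69.6 and 79.1 CPM in pMC and at 237, 234 and 228 CPM in IFN-alpha-pMC. It rose by 1.91 ± 0.23 against controls (3.75-fold, adjusted p = 4.58e-05) and by 1.75 ± 0.23 against pMC (3.36-fold, adjusted p = 9.1e-05). The alpha and beta chains of the IgE receptor, which also uses this chain, were at or near 0: Fcer1a had no count in 9 of 18 libraries and Ms4a2 in 10.

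Fcgr3, the low-affinity activating receptor of macrophages, NK cells and neutrophils, had a wide spread in the controls. It stood at 24.5, 21.1 and 75.4 CPM in right controls, at 35.4, 47.3 and 59.7 CPM in pMC and at 96.5, 114 and 68.1 CPM in IFN-alpha-pMC. Right control 3 lay above right IFN-alpha-pMC 3, so the groups overlapped. The difference of 1.2 ± 0.38 from controls was not called (adjusted p = 0.0517), nor was 0.97 ± 0.38 from pMC (adjusted p = 0.135), where the groups did not overlap. The first was called without right control 3 (2.02, adjusted p = 0.000114), without right IFN-alpha-pMC 3 (1.31, adjusted p = 0.0304), without left IFN-alpha-pMC 1 (1.21, adjusted p = 0.0393) and with DESeq2 (1.17, adjusted p = 0.0237). The second was called without right control 3 (0.97, adjusted p = 0.0099) and in a fit of the 2 groups alone (0.97, adjusted p = 0.043).

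Fcgr2b, the inhibitory receptor of B cells and myeloid cells, showed the smallest rise that was called. It stood at 35.2, 51.1 and 45.1 CPM in right controls, at 39.9, 54 and 45.7 CPM in pMC and at 63.1, 89.5 and 54.9 CPM in IFN-alpha-pMC. The IFN-alpha-pMC libraries lay above the others, most of all library 2. The difference was 0.66 ± 0.18 against controls (1.58-fold, adjusted p = 0.0252) and 0.57 ± 0.18 against pMC (adjusted p = 0.0553). The call against controls ended without any 1 of 6 libraries, right control 1, right IFN-alpha-pMC 2, right pMC 2 and left control 1, 2 and 3 (0.43 to 0.58, adjusted p = 0.0531 to 0.217), and in a fit of the 2 groups alone (0.59, adjusted p = 0.376). The value against pMC was called without right control 1, 2 or 3 or right IFN-alpha-pMC 3 (0.56 to 0.69, adjusted p = 0.0255 to 0.0467) and with DESeq2 (0.56, adjusted p = 0.0299). B cell markers, summed over 6 genes, were low but highest in IFN-alpha-pMC. On the right they stood at 1.92 to 3.31 CPM in controls, 2.01 to 2.76 CPM in pMC and 4.09 to 4.84 CPM in IFN-alpha-pMC. On the left they stood at 2.83 to 2.93 CPM in IFN-alpha-pMC and at most 2.28 CPM in controls and pMC.

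Fcgrt was not called on this side. It stood at 19.3, 23.4 and 39.9 CPM in right controls, at 27.8, 32.2 and 36.3 CPM in pMC and at 29.6, 40.3 and 27.5 CPM in IFN-alpha-pMC, and the 3 groups overlapped. The difference was 0.24 ± 0.23 against controls (95% interval −0.25 to 0.73, adjusted p = 0.6) and 0.02 ± 0.23 against pMC (−0.47 to 0.5, adjusted p = 0.983). Without right control 3 the first became 0.6 and was called (adjusted p = 0.0332). Its partner chain B2m rose from 3630 ± 1010 to 7330 ± 411 CPM (1.01 ± 0.23, adjusted p = 0.00744).

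**Figure D2:**
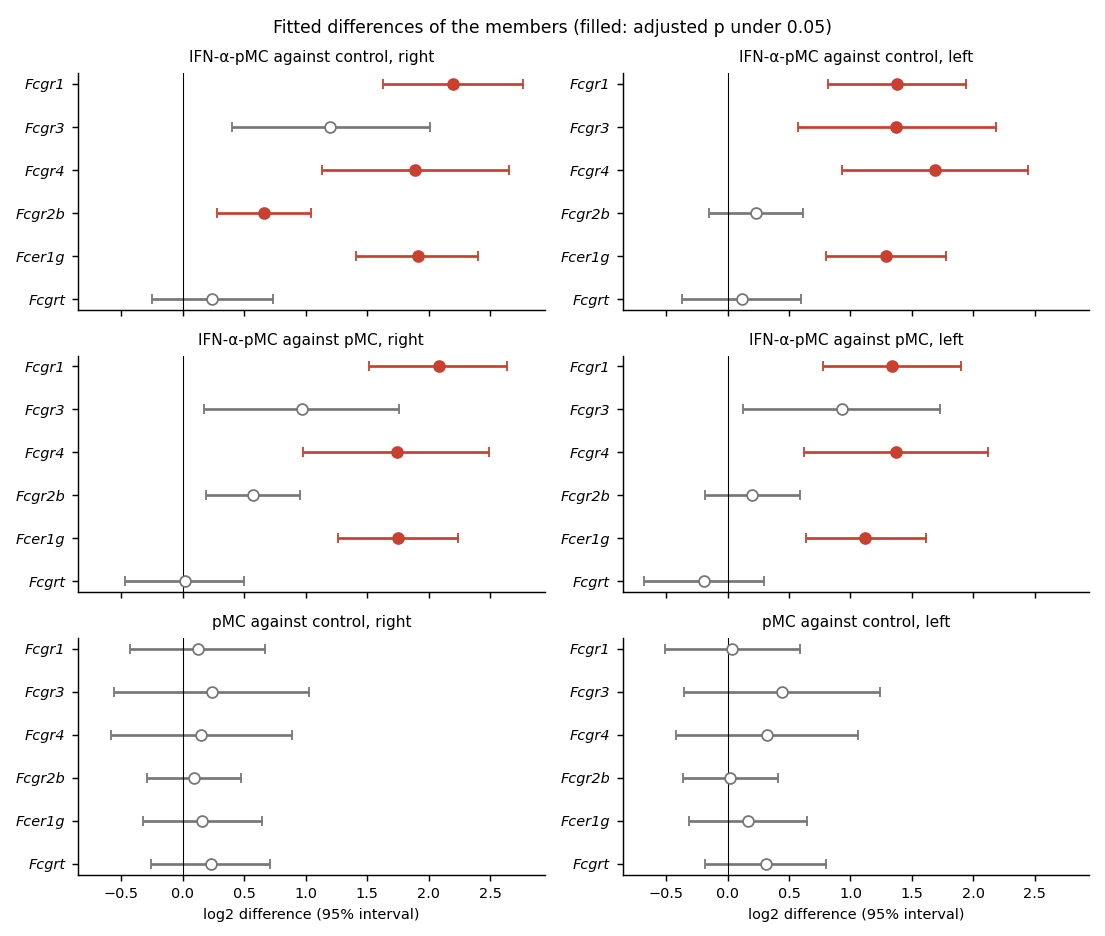
Fitted log2 differences of the 6 genes with 95% intervals in the 6 treatment comparisons, right tumours in the left column, filled where the adjusted p was under 0.05. Fcgr1, Fcgr4 and Fcer1g are filled in all 4 comparisons with IFN-alpha-pMC, and no gene is filled in pMC against control.

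In the distant tumours the same 3 genes and Fcgr3 rose in IFN-alpha-pMC mice against controls, by 2.45-fold to 3.22-fold. Of the 6 genes 4 were called, all higher, beside 6.65% of all genes called and 4.05% called higher. Against pMC 3 of 6 were called, beside 3.89% of all genes called and 2.73% called higher. The number of all genes called is unstable here: leaving out 1 library moved it from 987 to between 86 (without left control 3) and 4101 (without right control 3) against controls. Against pMC it moved from 578 to between 33 (without left IFN-alpha-pMC 2) and 2884 (without right control 3). Every IFN-alpha-pMC library lay above every control for 5 of 6 genes and above every pMC library for 5 of 6, as did 25.8% and 21.3% of all genes.

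Fcgr1 stood at 18.7, 21.2 and 20.8 CPM in left controls, at 19.9, 23.2 and 19.3 CPM in left pMC and at 63, 48 and 47 CPM in left IFN-alpha-pMC. The control and pMC libraries lay close together, and the IFN-alpha-pMC libraries lay above them, with library 1 the highest. Fcgr1 rose by 1.38 ± 0.26 against controls (2.6-fold, adjusted p = 0.0106) and by 1.34 ± 0.26 against pMC (2.53-fold, adjusted p = 0.0172). The first call ended without left control 1, 2 or 3 (1.29 to 1.37, adjusted p = 0.054 to 0.0648). The second ended without left pMC 1, 2 or 3 or left IFN-alpha-pMC 2 (1.29 to 1.42, adjusted p = 0.0577 to 0.0869).

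Fcgr4 stood at 21.1, 31 and 29.3 CPM in left controls, at 30.6, 38.4 and 32.6 CPM in pMC and at 112, 77.4 and 72.5 CPM in IFN-alpha-pMC. The groups did not overlap with IFN-alpha-pMC, and library 1 was again the highest. It rose by 1.69 ± 0.36 against controls (3.22-fold, adjusted p = 0.0179) and by 1.37 ± 0.35 against pMC (2.58-fold, adjusted p = 0.043). The first call ended without left control 1, 2 or 3 or left IFN-alpha-pMC 1 (1.45 to 1.75, adjusted p = 0.0534 to 0.0937), and the second without any 1 of 12 libraries (every left library, right pMC 2 and 3 and right IFN-alpha-pMC 2, 1.13 to 1.48, adjusted p = 0.0503 to 0.136).

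Fcer1g stood at 43.2, 56.7 and 60.1 CPM in left controls, at 51.2, 65.5 and 63 CPM in pMC and at 148, 121 and 122 CPM in IFN-alpha-pMC, again apart from the others. It rose by 1.29 ± 0.23 against controls (2.45-fold, adjusted p = 0.00838, and 0.0633 without left control 1) and by 1.12 ± 0.23 against pMC (2.18-fold, adjusted p = 0.0193). The second call ended without left pMC 1, 2 or 3 or left IFN-alpha-pMC 2 (1.02 to 1.19, adjusted p = 0.0682 to 0.0977).

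Fcgr3 stood at 27.4, 29 and 32.1 CPM in left controls, at 33.2, 46 and 41.3 CPM in pMC and at 104, 64 and 61.8 CPM in IFN-alpha-pMC. The 3 groups formed a ladder without overlap, pMC in the middle. The rise of 1.37 ± 0.38 against controls (2.59-fold, adjusted p = 0.0453) was close to the threshold, and the call ended without any 1 of 12 libraries (every left library, right pMC 2 and 3 and right IFN-alpha-pMC 2, 1.07 to 1.5, adjusted p = 0.0527 to 0.14). The difference of 0.93 ± 0.38 from pMC was not called (adjusted p = 0.119, and 0.0168 without right control 3).

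Fcgr2b and Fcgrt had small differences on this side, and neither was called. Fcgr2b stood at 40.1, 44.3 and 42.5 CPM in left controls, at 42.8, 47 and 39.3 CPM in pMC and at 48.6, 49.6 and 50.4 CPM in IFN-alpha-pMC. The IFN-alpha-pMC libraries lay above the rest by a small margin, with differences of 0.23 ± 0.18 from controls (−0.15 to 0.61, adjusted p = 0.346) and 0.2 ± 0.18 from pMC (−0.18 to 0.59, adjusted p = 0.45). Fcgrt differed by 0.12 ± 0.23 from controls (−0.37 to 0.6, adjusted p = 0.723) and by −0.19 ± 0.23 from pMC (−0.68 to 0.3, adjusted p = 0.582), with overlapping groups.

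With the muscle score as a covariate no left difference was called (0 of 6 in both comparisons by edgeR). The fitted values changed less than their calls: Fcgr1 was at 1.4 ± 0.38 against controls (adjusted p = 0.121), Fcgr4 at 1.8 ± 0.53 (0.141), Fcer1g at 1.37 ± 0.33 (0.0887) and Fcgr3 at 1.16 ± 0.55 (0.242). The score lay higher in every left IFN-alpha-pMC library (1.61 to 2.42) than in every other left library (at most 0.3). On the right it was also higher in every IFN-alpha-pMC library (2.93 to 4.13) than in every other right library (at most 2.02). Muscle content and treatment therefore cannot be told apart on either side.

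The pMC without IFN-α gave no called change in any of the 6 genes. On the right 0 of 6 genes were called by edgeR (0% of all genes, 0 of 6 at an unadjusted p under 0.05, 0 with DESeq2), and the log2 differences ran from 0.09 for Fcgr2b (−0.29 to 0.47) to 0.24 for Fcgr3 (−0.56 to 1.03). On the left the counts were the same (0 of 6, 0% of all genes, 0 unadjusted, 0 with DESeq2), with differences from 0.02 for Fcgr2b (−0.36 to 0.41) to 0.44 for Fcgr3 (−0.35 to 1.24). Fcgr3 was the 1 gene whose left pMC libraries all lay above the left controls, which 9.7% of all genes did. Without right control 3 and the other two libraries that stood apart, 5 of the 6 genes were called higher in right pMC tumours than in controls, among 5066 genes called in all. Fcgr3 was then at 1.05 (adjusted p = 0.00274), Fcgr4 at 0.89 (0.00741), Fcgr1 at 0.65 (0.00319), Fcgrt at 0.59 (0.018) and Fcer1g at 0.53 (0.0233), while Fcgr2b stayed at 0.11 (0.655). That fit rests on 2 right control libraries. With any 1 library left out, right control 3 among them, 0 of the 6 genes and at most 1 gene in all were called in this comparison. The differences in those fits reached 1.06 for Fcgr3, 0.89 for Fcgr4, 0.65 for Fcgr1, 0.59 for Fcgrt and 0.53 for Fcer1g. The calls thus appeared only when the IFN-alpha-pMC libraries that stood apart were left out as well.

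Between the sides, Fcgr1 was higher in right than in left IFN-alpha-pMC tumours (112 ± 16.8 against 52.7 ± 8.92 CPM, 1.09 ± 0.26, adjusted p = 0.032), the 1 gene of 6 called where 2.53% of all genes were called and 2.49% were called higher. The call ended when any 1 of the 6 IFN-alpha-pMC libraries was left out (1.01 to 1.22, adjusted p = 0.0532 to 0.14). Fcer1g was at 0.84 ± 0.23 (adjusted p = 0.0675, and 0.0252 or 0.0078 without right control 1 or 3), Fcgr4 at 0.64 ± 0.35 (0.502), Fcgr2b at 0.48 ± 0.18 (0.256), Fcgr3 at 0.28 ± 0.37 (0.787) and Fcgrt at 0.06 ± 0.23 (0.932). All right libraries lay above all left ones for Fcgr1, Fcgr2b, Fcgr4 and Fcer1g, as for 10.5% of all genes. In controls and in pMC tumours 0 of 6 genes were called between the sides (0% of all genes in each, 0 of 6 unadjusted and 0 by DESeq2), with values from −0.06 to 0.45 and from −0.15 to 0.35.

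The test of whether the effect of IFN-alpha-pMC differed between the sides called 0 of 6 genes against controls (0% of all genes, 1 of 6, Fcgr1, at an unadjusted p under 0.05, 0 with DESeq2) and 0 of 6 against pMC (0.391% of all genes, 0 unadjusted, 0 with DESeq2). Fcgr1 came nearest, with a right effect that exceeded the left one by 0.82 ± 0.37 against controls (0.05 to 1.6, adjusted p = 0.743) and by 0.74 ± 0.37 against pMC (−0.03 to 1.51, adjusted p = 0.436). Without right control 3 the first was 1.35 (adjusted p = 0.0403). Fcgr3 gave −0.17 ± 0.53 (−1.29 to 0.95) and Fcgr4 0.2 ± 0.49 (−0.84 to 1.25) against controls. For pMC against control the side difference called 0 of 6 genes (0% of all genes, 0 unadjusted, 0 with DESeq2).

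Within a library, the ratio of an activating receptor to the inhibitory Fcgr2b is free of library scaling. It is not corrected for length, so it is read only as a difference between groups. The log2 ratio of Fcgr1 to Fcgr2b was −1.14, −1.53 and −0.2 in right controls, −0.81, −0.98 and −0.65 in right pMC and 0.92, 0.46 and 0.75 in right IFN-alpha-pMC. In left tumours it was −1.1, −1.06 and −1.03 in controls, −1.1, −1.02 and −1.02 in pMC and 0.37, −0.05 and −0.1 in IFN-alpha-pMC. On both sides all IFN-alpha-pMC libraries lay above all others, by 1.67 and 1.52 on the right and 1.14 and 1.12 on the left (mean differences from controls and from pMC). The Fcgr4 ratio behaved alike, with mean differences of 1.46 and 1.22 on the right and 1.45 and 1.14 on the left, and no overlap. Each of these 8 comparisons gave an exact permutation p of 0.1, the smallest that 3 against 3 libraries can give, and an adjusted p of 0.15 over 18 tests (two-sided), so none passes 0.05. The same p-values came without IFN-α for the Fcgr4 ratio, where left pMC lay above left controls by 0.31 without overlap. How many of all genes would separate by such a ratio was not computed.

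The Fcgr3 ratio was less clear. It was −0.52, −1.27 and 0.74 in right controls, −0.17, −0.19 and 0.38 in right pMC and 0.61, 0.35 and 0.31 in right IFN-alpha-pMC, and the groups overlapped (differences of 0.77 and 0.42, exact permutation p = 0.4 and 0.3, adjusted 0.514 and 0.415). On the left it did not overlap (1.1 from controls and 0.69 from pMC, exact permutation p = 0.1, adjusted 0.15). Left pMC also lay above left controls for this ratio (0.41, exact permutation p = 0.1, adjusted 0.15). Fcgr2b and Fcgr3 share a run of 129 identical bases in their longest transcripts, and 44 windows of 100 bases, 3.5% of those of Fcgr3 and 1.3% of those of Fcgr2b, occur in both. Pairs that align more than once were not counted, so a small part of both genes may be missing. No other pair of the 6 genes shares a run of 20 bases.

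**Figure D3:**
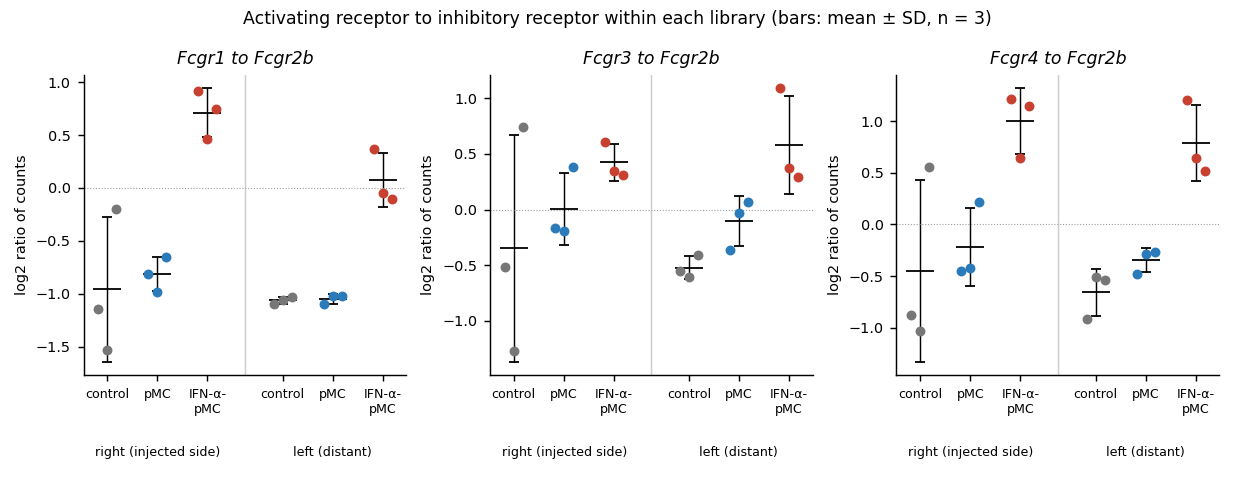
Log2 ratio of the counts of Fcgr1, Fcgr3 and Fcgr4 to those of Fcgr2b in each library (points), with mean and SD (n = 3). For Fcgr1 and Fcgr4 the IFN-alpha-pMC libraries of each side lie above the other libraries of that side, and right control 3 is the highest of the right controls in all panels.

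Macrophage markers moved with these genes. Of the 14 monocyte and macrophage markers 9 rose on the right in IFN-alpha-pMC against controls (median 1.27, beside a median of −0.03 over all genes tested) and 6 on the left (median 0.92, beside 0.07), and their summed level was 2010 to 2240 CPM in right IFN-alpha-pMC and 833 to 1760 CPM in right controls. NK cell markers, of cells that carry Fcgr3, rose in 7 of 7 cases on the right (111 to 141 against 9.18 to 23.4 CPM) and 4 of 7 on the left. Neutrophil markers summed to 12.3 to 31.3 CPM in right IFN-alpha-pMC and to at most 7.65 CPM in every other group, with Ly6g at 0 in 16 of 18 libraries. Csf3r alone stood at 10.4 to 22.3 CPM in right IFN-alpha-pMC. S100a8 (1.94 ± 3.03 CPM) and S100a9 (2.91 ± 4.27 CPM) varied widely there, so the sum mostly follows 1 gene. Called higher were 1 of 7 dendritic cell markers on the right and 2 of 7 on the left, and 2 and 1 of 5 mast cell and basophil markers, beside 8.78% and 4.05% of all genes. The part of each cell type in the receptor values was not tested.

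Set against the mean log2 CPM of 12 macrophage markers in the same library (Csf1r, Adgre1, Cd68, Aif1, Mrc1, C1qa, C1qb, C1qc, Mertk, Itgam, Lyz2 and Cd14), Fcgr1 was at −1.16, −1.25 and −0.51 in right controls, at −0.76, −0.81 and −0.84 in right pMC and at 0.5, 0.45 and −0.01 in right IFN-alpha-pMC. The IFN-alpha-pMC libraries lay above the others, by 1.29 and 1.11 on the right and by 0.75 and 0.88 on the left (from controls and from pMC). Fcgr4 exceeded these 12 markers in the same way (1.08, 0.82, 1.06 and 0.9), as did Fcer1g (0.96, 0.8, 0.68 and 0.68). Fcgrt was lower relative to the markers by 0.73 and 0.95 on the right and by 0.49 and 0.63 on the left. Its own level was not called in these comparisons, and a gene that does not move is lower by this measure when the markers rise. All 16 comparisons of Fcgr1, Fcgr4, Fcer1g and Fcgrt were without overlap, with an exact permutation p of 0.1, the smallest possible, and an adjusted p of 0.18 over 36 tests (two-sided). The share of all genes without overlap by this measure was not computed. Fcgr3 overlapped on the right (0.39 and 0.01, exact permutation p = 0.6 and 0.9, adjusted 0.655 and 0.926), and so did Fcgr2b (−0.38 and −0.41, exact permutation p = 0.3 and 0.2, adjusted 0.386 and 0.3). On the left Fcgr3 lay above without overlap (0.72 and 0.45, exact permutation p = 0.1, adjusted 0.18 for both). For Fcgr3, left pMC also lay above left controls without overlap (0.27, exact permutation p = 0.1, adjusted 0.18). Fcgr2b lay below left controls without overlap (−0.39, exact permutation p = 0.1, adjusted 0.18) and overlapped with left pMC (−0.24, exact permutation p = 0.2, adjusted 0.3).

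The choice of reference matters here. Of the 14 markers above, Ccr2 and Ly6c2 were not among the 12. From right controls to right IFN-alpha-pMC they went from 15.8 ± 8.46 to 73.4 ± 12.5 and from 10.7 ± 5.52 to 177 ± 9.6 CPM. Mertk (135 ± 27.1 to 109 ± 16.6 CPM) and Lyz2 (417 ± 354 to 331 ± 110 CPM), which were among the 12, had lower means there. A reference with Ccr2 and Ly6c2 was not tested. Against 4 genes of leukocytes in general (Tyrobp, Laptm5, Ptprc and Coro1a), the right differences of Fcgr1 fell to 0.34 and 0.3, those of Fcgr4 to 0.13 and 0 and those of Fcer1g to 0.01 and −0.02, and Fcgr3 turned to −0.55 and −0.81. Fcgrt was then lower by 1.68 and 1.77 on the right. On the left Fcgr1 (0.4 and 0.69), Fcgr4 (0.71 and 0.7) and Fcer1g (0.33 and 0.48) were still above 0.

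**Figure D4:**
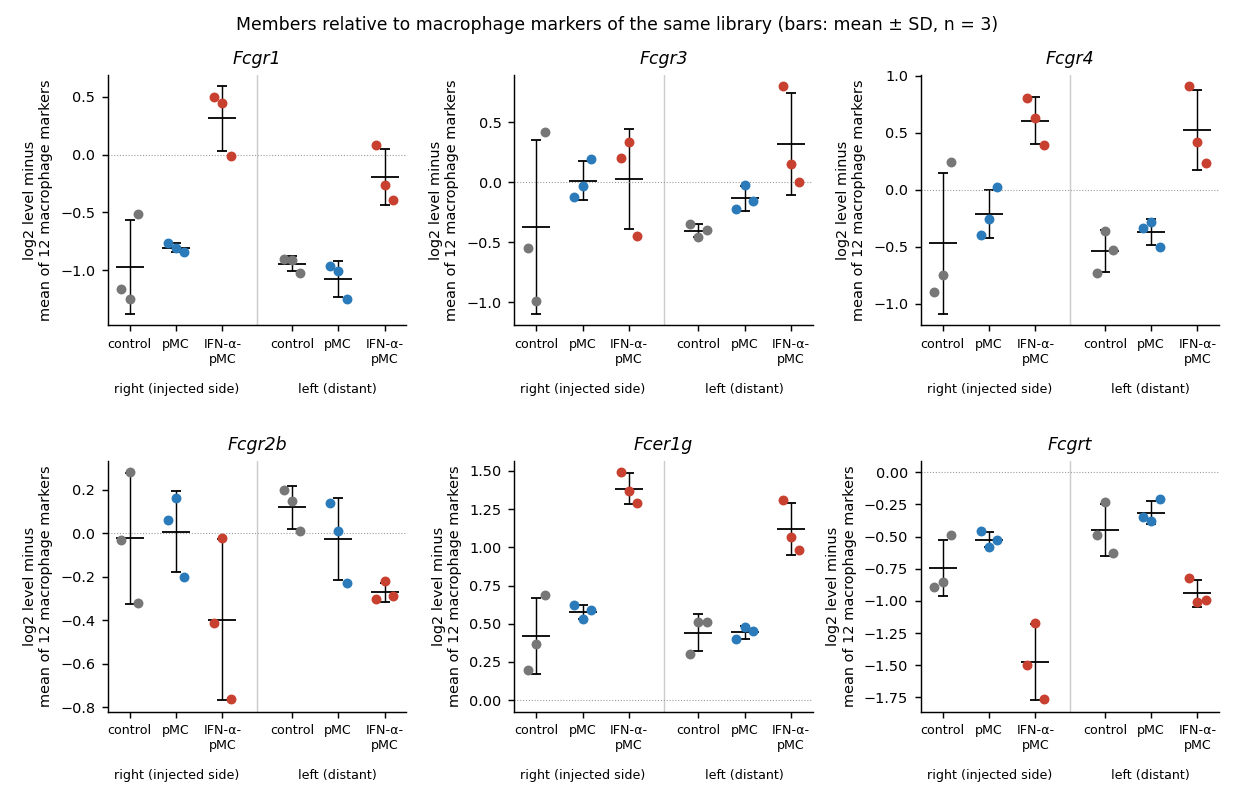
Log2 level of each gene minus the mean of 12 macrophage markers in the same library (points), with mean and SD (n = 3). Fcgr1, Fcgr4 and Fcer1g lie higher in IFN-alpha-pMC than in the other groups of their side and Fcgrt lies lower, while Fcgr2b and Fcgr3 overlap on the right.

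Genes that act below the activating receptors were also measured. Of 20 ITAM kinases, adaptors and effectors, 16 rose in right IFN-alpha-pMC tumours against controls (median 1.51, all genes −0.03) and 4 in left ones (median 0.52, all genes 0.07), and 11 of 20 were higher in right than in left IFN-alpha-pMC tumours. The side difference itself called 0 of 20 (median 0.92). The 4 most abundant were mixed. The Src family kinase Lyn, which phosphorylates the motif, rose from 27.7 ± 3.48 to 68.1 ± 11 CPM on the right (1.3 ± 0.19, adjusted p = 0.000167) and Syk from 30.6 ± 7.94 to 45.3 ± 1.33 CPM (0.57 ± 0.17, adjusted p = 0.0399). Fyn (0.2 ± 0.17) and Gab2 (−0.15 ± 0.22) did not pass. On the left none of these 4 passed, Lyn being at 0.55 ± 0.19 (adjusted p = 0.0671) and Syk at 0.27 ± 0.17 (0.249).

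The phagocyte oxidase makes the oxidative burst that follows receptor engagement. On the right 4 of its 5 genes rose (median 1.41) and on the left 1 (median 0.78). Its membrane subunit Cybb went from 40.5 ± 12 to 108 ± 18.4 CPM on the right (1.41 ± 0.25, adjusted p = 0.000991), while Cyba, at 88.8 ± 69.5 and 203 ± 69.7 CPM, did not pass (adjusted p = 0.154). The other signalling chains Tyrobp, Cd247 and Hcst rose in 3 of 3 cases on both sides, with medians of 2.02 and 1.67 (Hcst, grouped with the ITAM chains, signals through another motif). Tyrobp, the chain DAP12 of myeloid and NK cell receptors, was at 136 ± 32.5 against 42.1 ± 33.3 CPM on the right (1.7 ± 0.45, adjusted p = 0.021), and at 98.2 ± 48 against 33.5 ± 7.7 CPM on the left (1.55 ± 0.45, adjusted p = 0.05 after rounding).

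On the inhibitory arm 4 of 6 genes rose on the right (median 0.94) and 0 of 6 on the left (median 0.32). Inpp5d, the lipid phosphatase SHIP1 that Fcgr2b recruits, went from 11.8 ± 2.77 to 26.4 ± 13.6 CPM on the right (1.16 ± 0.28, adjusted p = 0.0129) and was at 0.01 ± 0.29 on the left. The phosphatase Ptpn6 (SHP-1) rose by 0.95 ± 0.13 on the right (adjusted p = 0.000129) and was at 0.36 ± 0.13 on the left (0.0823), and its more widely expressed relative Ptpn11 was at −0.25 ± 0.21 and −0.45 ± 0.21.

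RNA of immunoglobulin chains was also measured, of which only the IgG heavy chains (the Ighg genes) hold the Fc part that these receptors bind. Of 7 immunoglobulin genes tested, of 8 with a gene ID in the files, 4 rose on the right (median 1.59) and 0 on the left (median 0.61). The light chain Igkc went from 7.22 ± 3.48 to 29.6 ± 10.1 CPM on the right (2.03 ± 0.39, adjusted p = 0.00193) and Ighg2c, the IgG2c heavy chain of C57BL/6 mice, from 12.5 ± 7.46 to 29.5 ± 13.6 CPM (1.24 ± 0.38, adjusted p = 0.0476, groups overlapping). Ighg2b stood at 3.3 ± 0.795 CPM in right controls and at 3.88 ± 0.918 CPM in right IFN-alpha-pMC. Of 13 other Fc receptors and related genes 4 had enough counts to be tested. Trim21, the cytosolic antibody receptor, rose on both sides (0.67 ± 0.16 and 0.58 ± 0.16, adjusted p = 0.0123 and 0.0455), as did Fcrl5 (2.8 ± 0.51 and 2.64 ± 0.54, adjusted p = 0.00121 and 0.0142). Fcrls fell from 2.52 ± 0.434 to 0.574 ± 0.18 CPM on the right (−2.13 ± 0.32, adjusted p = 0.000204) and was at −0.98 ± 0.31 on the left (adjusted p = 0.0592). Of the other tested markers, T cell genes rose in 7 of 7 cases on the right and 4 of 7 on the left, erythroid genes fell in 5 of 5 and 0 of 5, and melanocyte genes changed in 0 of 7 on both sides. Of 11 interferon-gamma response genes, 11 rose on the right (median 1.42) and 8 on the left (median 1.13).

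**Figure D5:**
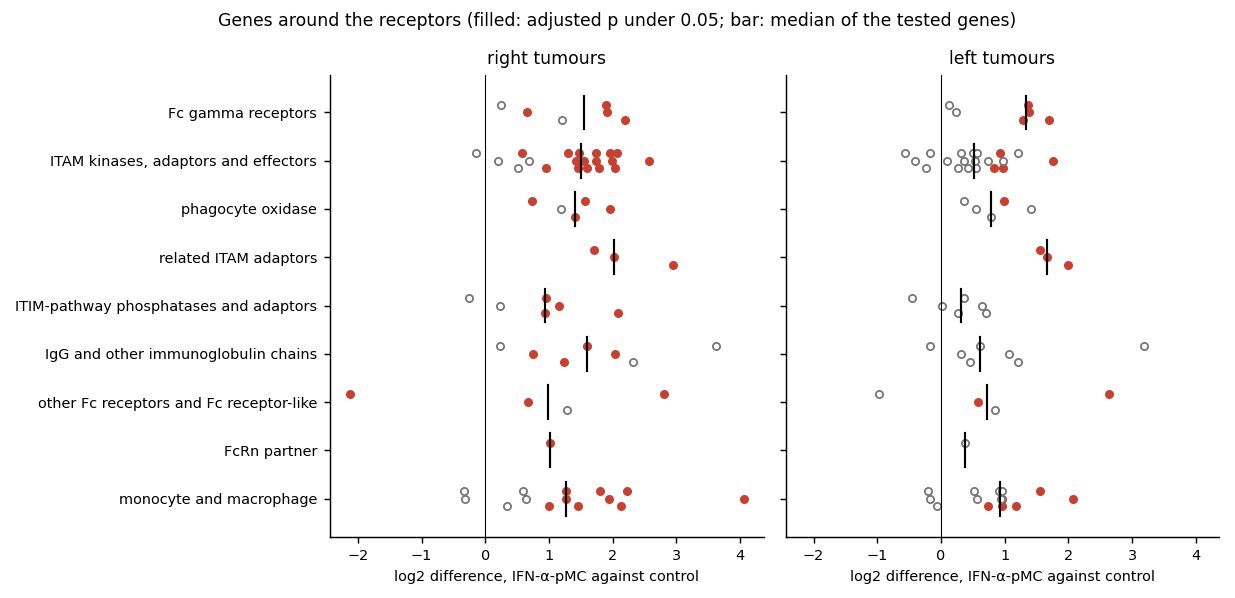
Log2 difference of each tested gene between IFN-alpha-pMC and control tumours in the Fc receptors and in 8 lists around them (points, filled where the adjusted p was under 0.05), with the median of each list as a bar, right tumours in the first panel. The ITAM list is filled for 16 of 20 genes on the right and 4 of 20 on the left. The Fc receptors are filled for 4 of 6 on each side, Fcgr2b only on the right and Fcgr3 only on the left. Of all genes tested, 10.8% were called on the right and 6.65% on the left.

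Genes with the most similar pattern were named by the Pearson correlation of log2 CPM over the 18 libraries. The values are dominated by the IFN-alpha-pMC libraries that all share, and they are given as a description. Among the nearest to Fcgr1 were Gzmb, a granzyme of cytotoxic lymphocytes (0.984), and Ms4a6d (0.983), and nearest to Fcgr4 were Ms4a6c (0.992), Cd52 (0.991) and Otulinl (0.991). Among the nearest to Fcer1g were the inhibitory receptor Pirb (0.99) and Cd247 (0.986), and nearest to Fcgr3 were the lysosomal protease Ctsh (0.987), Tyrobp (0.984) and Gmfg (0.981). The nearest genes of Fcgr2b were more distant, with Cd3e at 0.899, A430093F15Rik at 0.899 and G530011O06Rik at 0.891. Fcgrt had Mogat1 (0.891), the macrophage and dendritic cell lectin Clec10a (0.879) and Prrg2 (0.859). Among the 6 genes, Fcgr1, Fcgr3, Fcgr4 and Fcer1g correlated with each other at 0.895 to 0.988, and Fcgrt with the other 5 at 0.325 to 0.591.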

How the data were processed

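Stranded mRNA libraries of 18 tumours were sequenced, and the titles gave the 6 groups of 3. The authors deposited raw counts of read pairs per gene, made, per the submitters' processing notes, with Trimmomatic 0.36, HISAT2 2.1.0 and HTSeq 0.10.0 on build mm9; no source used here gives the annotation release or strand setting, and reads of Fcgr2b and of its overlapping antisense gene Gm38204 may not be told apart. The 5 summary rows, which hold the read pairs in no gene, were left out, and 60.2 to 70.7% of pairs were assigned to a gene. Symbols were matched by Ensembl ID to GENCODE M21 (32897 of 37620).

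Differences were computed from these counts with edgeR 4.0.16 (quasi-likelihood F, trimmed means, filterByExpr, 14849 genes, 1 fit of 6 group means, Benjamini-Hochberg over all genes, threshold 0.05), checked on simulated data. Standard errors are the log2 difference over the square root of F. Log2 CPM used a prior count of 2 and ratios of counts a pseudocount of 0.5, with exact permutation tests. Named were all 6 genes in each comparison, the 4 most abundant or fewer of each list, Tyrobp, B2m, Syk, Inpp5d and Ptpn6, and the 3 genes nearest each member, of which 1 gene is not reported here. Some other genes, such as Hcst, Fcer1a and Ly6g, were named after their values were seen. The members and lists were chosen with earlier results of these data known. Alternatives were DESeq2 1.42.0, its size factors, no filter, only the groups compared, a replicate block, the muscle score, the 3 libraries that stood apart left out, and each library left out.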

Additional observations from a re-analysis of the deposited data

How the results depend on the processing

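The fitted levels of Fcgr1, Fcgr4 and Fcer1g stayed higher in IFN-alpha-pMC tumours of both sides under every setting of the fit, with calls lost as given above. Set against leukocyte genes, these 3 genes did not all stay higher on the right, as given above. Tumours were few, 1 control library moved most right values, and muscle content moved with treatment; why values moved was not tested beyond these settings. No 2 groups had all 3 correlations of same-numbered libraries over 0.1, so the numbers were not used as pairs; the sides may still share mice, which the labels do not say. A replicate block called 4, 4, 3 and 2 members in IFN-alpha-pMC against control and pMC, right then left, and 1 between the sides of IFN-alpha-pMC. With it Fcgr2b was called on the right against pMC (0.56, adjusted p = 0.0329), and Fcgr3 against left controls (1.4, adjusted p = 0.0641) and Fcgr4 against left pMC (1.4, adjusted p = 0.0541) were not.

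Members called numbered 2 with only the groups compared (right IFN-alpha-pMC against control) and 0 with the muscle score (left, against control and against pMC). Between the sides of IFN-alpha-pMC they numbered 2 with DESeq2, 0 with only the groups compared and 0 with the muscle score. Without the 3 libraries that stood apart they numbered 6 in right IFN-alpha-pMC against control, 5 against pMC, 5 in right pMC against control, 4 between the sides of IFN-alpha-pMC, and 4 and 1 in the side difference of IFN-alpha-pMC against control and pMC. Over the alternatives other than leaving out 1 library, all genes called also moved widely. On the right they numbered 582 to 8175 against control (1601 in the full fit) and 709 to 4286 against pMC (1497). On the left they numbered 90 to 4331 (987) and 52 to 4142 (578). Between the sides of IFN-alpha-pMC they numbered 190 to 863 (375). In its side difference against control and pMC they numbered 0 to 761 (0) and 42 to 253 (58). With 1 library left out the members called ranged over 3 to 6 (right, against control), 3 to 5 (right, against pMC), 0 to 4 (left, against control and against pMC), 0 to 2 (between sides) and 0 to 1 (side difference against control). Beside the ranges given above, all genes called then ran from 1027 to 1925 (right, against pMC), 141 to 512 (between sides) and 0 to 13 (side difference against control).

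Signs turned for values that were small and uncalled in the fit over all libraries. Without the 3 libraries the right against left difference of controls was −0.27 for Fcgr1, −0.37 for Fcgr3, −0.3 for Fcgr4 and −0.16 for Fcer1g. The side difference of IFN-alpha-pMC against control was then 1.08 for Fcgr3 and was called (adjusted p = 0.0348 by edgeR), where the fit over all libraries gave −0.17. In pMC against control the side difference was 0.61 for Fcgr3, 0.57 for Fcgr4, 0.37 for Fcer1g and 0.28 for Fcgrt. Fcer1g was at 0.01 there with no filter, with only the groups compared and with the replicate block. Against leukocyte genes, beside the values given above (Fcgr3 −0.55 and −0.81, Fcgr4 0, Fcer1g −0.02), the pMC against control values were −0.1 for Fcgr2b (right), −0.15 for Fcer1g and −0.01 for Fcgrt (left).

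Leaving out 1 library at a time gave these ranges. In right pMC against control they were −0.17 to 0.65 (Fcgr1), −0.13 to 0.19 (Fcgr2b), −0.11 to 1.06 (Fcgr3), −0.22 to 0.89 (Fcgr4), −0.14 to 0.53 (Fcer1g) and −0.05 to 0.59 (Fcgrt). In left pMC against control they were −0.04 to 0.09 for both Fcgr1 and Fcgr2b. Between the sides of controls they were −0.27 to 0.52, −0.07 to 0.23, −0.37 to 0.76, −0.3 to 0.77, −0.16 to 0.48 and −0.43 to 0.17 in the same gene order. In the side difference of pMC against control they were −0.18 to 0.61, −0.12 to 0.18, −0.53 to 0.61, −0.51 to 0.57, −0.28 to 0.37 and −0.32 to 0.28. In that of IFN-alpha-pMC against control they were −0.49 to 0.65 (Fcgr3), −0.14 to 0.94 (Fcgr4) and −0.11 to 0.49 (Fcgrt), and against pMC −0.13 to 0.31 (Fcgr3). Fcgrt ranged over −0.04 to 0.6 and −0.17 to 0.11 in right IFN-alpha-pMC against control and pMC, −0.02 to 0.21 against left controls and −0.12 to 0.14 between the sides of IFN-alpha-pMC, and Fcgr2b over −0.02 to 0.22 between the sides of pMC. The ratio to Fcgr2b in pMC against control ranged over −0.15 to 0.52 (Fcgr1), −0.1 to 0.9 (Fcgr3) and −0.06 to 0.74 (Fcgr4) on the right and 0 to 0.04 (Fcgr1) on the left. Relative to macrophage markers, Fcgr2b in right pMC against control ranged over −0.12 to 0.18, Fcgr3 in right IFN-alpha-pMC against pMC over −0.14 to 0.25 and Fcer1g in left pMC against control over −0.06 to 0.04.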

Other observations

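Within the groups, that is after group means were removed, Fcgr1, Fcgr3, Fcgr4 and Fcer1g still varied together over the 18 libraries (r = 0.843 to 0.96), and Fcgrt varied with them (0.845 to 0.859); Fcgrt was not called in any treatment comparison of the fit over all libraries, and was called without right control 3 (0.6 in right IFN-alpha-pMC against control, adjusted p = 0.0332). Fcgr2b varied with them less (0.296 to 0.387, and 0.513 with Fcgrt). Right control 3 contributes to these values, being high for all of them except Fcgr2b.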
